A study of Mus musculus with 6 samples.

Results

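The 37 genes described here mark intraepithelial lymphocytes and other T cells: granule proteases and death ligands, chemokines, chains of the T cell receptor and of CD3, coreceptors, receptor-proximal kinases, surface glycoproteins, natural killer type receptors, homing receptors and pan-leukocyte proteins. They were listed by symbol, and all 37 were found among the 51912 genes of the deposited tables after Ensembl IDs had been matched to symbols. RNA had been sequenced from sorted small intestinal epithelium of C57BL/6 mice in 3 groups of 2 libraries. Specific pathogen free (SPF) mice lacked certain pathogens only, germ free (GF) mice lacked a microbiota, and antigen free (AF) mice lacked foreign antigens of both microbial and dietary origin. Replicate numbers follow the sample titles, 3 and 4 for SPF, 1 and 3 for GF, 2 and 3 for AF, and paired values below are in that order. The labels give neither the age of the mice, nor the diets, nor the gate of the sort, and do not say whether a library is 1 mouse or a pool. The p-values therefore measure only the spread between these libraries, which may be in part technical.

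Intraepithelial lymphocytes sit between the epithelial cells of the gut. In the mouse small intestine most carry CD8 as an alpha-alpha homodimer, many use the gamma-delta T cell receptor, and they keep granules filled with granzymes. The integrin CD103, encoded by Itgae, binds E-cadherin on the epithelial cell, and interleukin 15 presented by the epithelium signals to them through the beta chain encoded by Il2rb. Because they lie inside the layer, a preparation of epithelium can carry some of them along.

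Libraries held 16109488 to 19417054 expected counts, and 1 count was worth 0.0365 to 0.0785 CPM, the unit of counts relative to library totals scaled by edgeR's TMM factors. Epithelial markers were abundant, with Epcam at 574 to 750.0 CPM, Cdh1 at 275 to 386 CPM and Vil1 at 1846 to 3646 CPM. Some features of the libraries touch every comparison. The X-inactivation transcript Xist was at 129.7 and 96.6 CPM in the SPF libraries with 0 counts of 4 Y-linked genes, whereas the other libraries held 52.2 to 61.7 CPM of those Y-linked genes. GF replicate 3 held both, with Xist at 14.8 CPM, against at most 0.178 CPM in GF replicate 1 and the AF libraries. SPF replicate 4 was poor in crypt and proliferation genes, 10 genes that summed to 82.8 CPM there and to 235 to 605 CPM elsewhere. Each group's tables also carry a date-like number of their own. Sex, rearing and whatever that number stands for thus cannot be told apart between SPF and the other groups. Nor can rearing and whatever that number stands for be told apart between any of the groups.

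The lymphocyte genes were scarce in every library, and they were scarcest in the AF libraries. Summed over the 37 genes, they stood at 304 and 123 CPM in the SPF libraries, 61.3 and 510.4 in the GF libraries, and 43.7 and 31.1 in the AF libraries. Both AF libraries lay below all others. In SPF and GF the replicates lay far apart: GF replicate 3 had 8.32 times the level of GF replicate 1, and SPF replicate 3 had 2.47 times that of SPF replicate 4. The group means were 213 ± 128 CPM in SPF, 286 ± 318 CPM in GF and 37.4 ± 8.96 CPM in AF (SD, n = 2). The difference between SPF and GF was thus smaller than the spread inside either group. The lower GF library had 1.40 times the level of the higher AF library, and the lower SPF library 2.81 times that level. The genes made up 0.00310 to 0.0445% of a library's counts. In these bulk samples, fewer lymphocytes among the sorted cells and less of these RNAs per lymphocyte cannot be told apart.

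**Figure D1:**
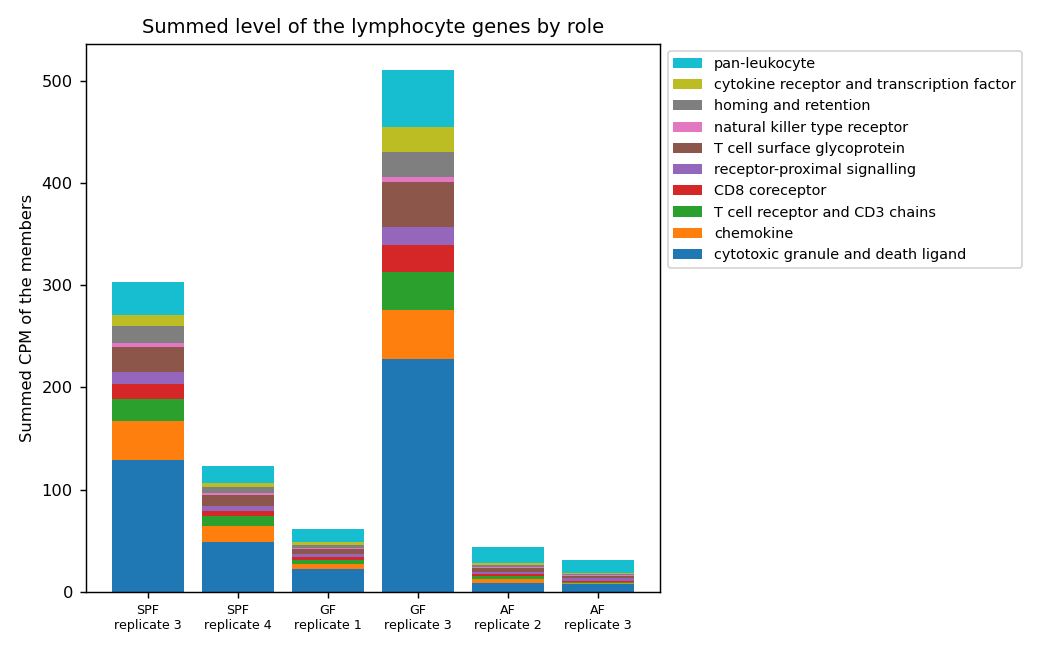
Summed CPM of the 37 lymphocyte genes (vertical axis, from 0) in each of the 6 libraries (horizontal axis), with a coloured segment for each of 10 roles. GF replicate 3 and SPF replicate 3 are the tallest bars at 510.4 and 304 CPM, and the AF libraries the shortest at 43.7 and 31.1 CPM.

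Gene by gene the order of the libraries repeated. SPF replicate 3 and GF replicate 3 were the 2 highest libraries for 29 of the 37 members, an order that 4.35% of the 13644 genes tested showed. GF replicate 3 alone was highest for 32 of 37 (background 13.7%). The AF libraries lay below all 4 others for 22 of 37 members, against 10.1% of the genes tested, and above all 4 others for 0 of 37, against 8.03%. They lay below both SPF libraries for 31 of 37 (background 22.6%) and below both GF libraries for 23 of 37 (background 17.8%). GF lay below SPF in both libraries for 1 member, Cd6 (background 17.1%), and above SPF for 0 (background 16.8%). Members of one cell type vary together within a library, so these counts do not add up as separate observations. Within groups, the median ratio over the members with at least 10 counts in both libraries was 8.78 for GF replicate 3 over GF replicate 1 (22 members) and 2.34 for SPF replicate 3 over SPF replicate 4 (26 members). Over all genes tested the same ratios had medians of 1.004 and 0.947.

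**Figure D2:**
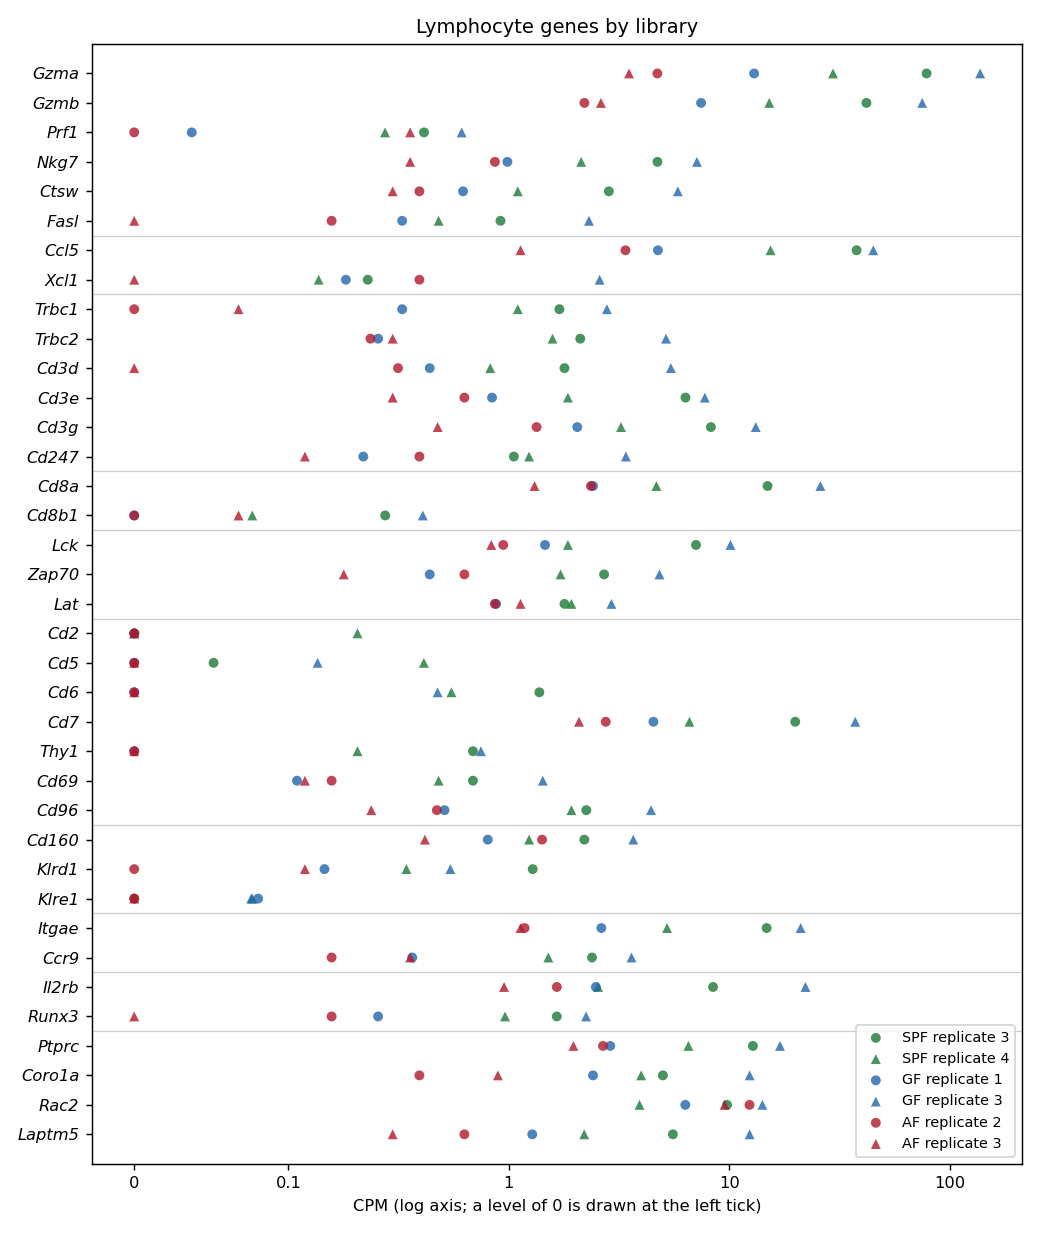
CPM of each of the 37 genes on a log axis (a level of 0 is drawn at the left tick), 1 row per gene with grey lines between roles, colours for groups and symbols for the replicates. GF replicate 3 lies furthest to the right for 32 of the 37 genes, and the red AF symbols lie left of all others for 22.

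The cytotoxic genes were the most abundant role in the SPF and GF libraries and made up 36.4 to 44.6% of the summed member CPM there. In the AF libraries they made up 19.03 and 22.9%, less than the pan-leukocyte genes with 36.6 and 40.7%. That pan-leukocyte share was mostly Rac2, the exception described below, with 12.3 and 9.51 of 16.02 and 12.7 CPM. The cytotoxic genes summed to 8.33 and 7.13 CPM in AF, more than the pan-leukocyte genes other than Rac2. Gzma (ENSMUSG00000023132, chr13:113093825-113100981, minus strand) encodes granzyme A, a trypsin-like protease of cytotoxic granules, and was at 78.3 and 29.5 CPM in the SPF libraries, 12.9 and 137 in the GF libraries, and 4.71 and 3.51 in the AF libraries. The AF libraries lay below all others, with group means of 53.9 ± 34.5 CPM in SPF, 75.0 ± 87.8 in GF and 4.11 ± 0.853 in AF (SD, n = 2). Gzmb (ENSMUSG00000015437, chr14:56258838-56262260, minus strand) encodes granzyme B, the granule protease that activates caspases in the target cell. Its level was 41.8 and 15.2 CPM in the SPF libraries, 7.44 and 74.8 in the GF libraries, and 2.20 and 2.61 in the AF libraries, in the same order of libraries except that AF replicate 3 exceeded AF replicate 2. Fitted with edgeR's quasi-likelihood test over all 13644 genes that passed a low-count filter, with Benjamini-Hochberg adjustment, the log2 difference of AF from the mean of GF and SPF was -3.95 (SE 1.09, adjusted p = 0.639) for Gzma and -3.82 (SE 1.09, adjusted p = 0.641) for Gzmb, so neither passed the threshold of 0.05.

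The other 4 genes of the role were rarer. Nkg7, a granule membrane protein needed for degranulation, was at 4.72 and 2.13 CPM in the SPF libraries, 0.984 and 7.12 in the GF libraries, and 0.864 and 0.357 in the AF libraries. Ctsw, the lysosomal protease cathepsin W of killer cells, was at 2.84 and 1.10 CPM in the SPF libraries, 0.620 and 5.83 in the GF libraries, and 0.393 and 0.297 in the AF libraries. For both genes AF lay below all other libraries. Fasl, the death ligand of activated T cells, held 20 and 7 counts in SPF, 9 and 34 in GF, and 2 and 0 in AF, so that the SPF to AF ratio of summed CPM was 10.96 with an exact 95% counting interval of 2.75 to 95.1. Perforin, the pore former encoded by Prf1, stayed below the low-count filter with 9 and 4 counts in SPF, 1 and 9 in GF, and 0 and 6 in AF. The granzyme genes each had at least 204 counts in every SPF and GF library, whereas Prf1 had at most 9. Per count of Gzmb, Gzma had 1.74 to 1.95 counts in those libraries, and 2.14 (95% interval 1.35 to 3.49) and 1.34 (95% interval 0.892 to 2.03) in AF replicates 2 and 3.

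The granzyme promoters are shown because RUNX3, itself a member, is a known regulator of cytotoxic genes in CD8 lineage cells. Of the 37 members, 23 have a promoter in a RefSeq table for GRCm38.p6, and the 250 bases before each start were searched on both strands for the RUNX core TGTGGT (reverse complement ACCACA) and the ETS cores CCGGAA and AGGAA, which cannot be the same match. The RUNX core was in 11 of the 23 members (Cd160, Cd96, Gzma, Gzmb, Klre1, Lck, Nkg7, Prf1, Runx3, Xcl1 and Zap70) and in 15.9% of all genes in the table. CCGGAA was in 2 of 23 (Coro1a and Zap70) against 13.6% of all genes, and AGGAA in 20 of 23 against 63.5%. A gene counted if any of its promoters matched. By promoter, TGTGGT was in 12 of 31 member promoters, CCGGAA in 2 of 31 and AGGAA in 25 of 31. Of all promoters, 14%, 12% and 60.3% held them. Read 5′ to 3′ on the minus strand, with each RUNX core in capitals, the windows just before the RefSeq starts of Gzma (chr13:113100982-113101231) and Gzmb (chr14:56262335-56262584) are:
Gzma: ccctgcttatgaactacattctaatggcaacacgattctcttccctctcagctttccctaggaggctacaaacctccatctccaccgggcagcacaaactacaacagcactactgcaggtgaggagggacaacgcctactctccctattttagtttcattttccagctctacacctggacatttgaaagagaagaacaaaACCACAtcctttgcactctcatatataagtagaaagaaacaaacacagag
Gzmb: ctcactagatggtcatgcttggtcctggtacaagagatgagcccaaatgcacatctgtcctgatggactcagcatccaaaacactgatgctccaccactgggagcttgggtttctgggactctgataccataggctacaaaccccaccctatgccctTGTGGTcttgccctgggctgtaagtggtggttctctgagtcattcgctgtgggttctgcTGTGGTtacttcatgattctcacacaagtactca
Gzma holds 1 match, beginning 50 bases before the start, and Gzmb holds 2, beginning 93 and 34 bases before it. A match of letters is a description and no evidence of binding in these cells.

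Of the chemokines, Ccl5 (ENSMUSG00000035042, chr11:83525778-83530518, minus strand), a chemokine that attracts T cells, came next after Gzma and Gzmb by mean CPM. Its level was 37.7 and 15.4 CPM in the SPF libraries, 4.74 and 44.9 in the GF libraries, and 3.38 and 1.13 in the AF libraries. Here too AF lay below all 4 other libraries, and the fitted log2 difference from the mean of GF and SPF was -3.53 (SE 1.11, adjusted p = 0.647). Xcl1, a chemokine that draws cross-presenting dendritic cells, held 5 and 2 counts in SPF, 5 and 38 in GF, and 5 and 0 in AF. Only GF replicate 3 stood well above 3 counts, the number that a measured 0 still allows.

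The T cell receptor was represented by both beta constant genes and the 4 CD3 chains, which assemble with the receptor and signal for it. Cd3g was the strongest of the CD3 chains at 8.24 and 3.22 CPM in the SPF libraries, 2.04 and 13.2 in the GF libraries, and 1.34 and 0.475 in the AF libraries. Cd3e followed at 6.32 and 1.85 CPM in the SPF libraries, 0.838 and 7.73 in the GF libraries, and 0.628 and 0.297 in the AF libraries. Both had their highest level in GF replicate 3 and their lowest in AF replicate 3. Cd3d held 39 and 12 counts in SPF, 12 and 80 in GF, and 4 and 0 in AF. Cd247, the zeta chain, held 23 and 18 counts in SPF, 6 and 50 in GF, and 5 and 2 in AF, and its AF and GF libraries overlapped. Summed, the 6 genes of the role stood at 21.2 and 9.81 CPM in the SPF libraries, 4.12 and 37.7 in the GF libraries, and 2.91 and 1.25 in the AF libraries. Posterior standard deviations reported by RSEM reached 15.5% of the count for Cd247, whereas for the other CD3 chains they were at most 1.78%.

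Trbc1 (ENSMUSG00000076490, chr6:41538218-41539881, plus strand) and Trbc2 (ENSMUSG00000076498, chr6:41546730-41548352, plus strand) are a tandem pair of near-identical genes, shown here because RSEM had to split reads between them. Their first exons of 375 bases differ at 1 base, and the third exons of 107 bases at 15. In the stretches below, from transcripts of GENCODE M21 on GRCm38 read 5′ to 3′ on the plus strand, capitals mark the bases that differ. They cover chr6:41538448-41538507 and chr6:41546960-41547019 of the first exons, then chr6:41539229-41539335 and chr6:41547772-41547878, the third exons.
Trbc1 exon 1: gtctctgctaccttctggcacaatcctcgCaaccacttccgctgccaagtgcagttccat
Trbc2 exon 1: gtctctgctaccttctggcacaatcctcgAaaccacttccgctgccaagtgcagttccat
Trbc1 exon 3: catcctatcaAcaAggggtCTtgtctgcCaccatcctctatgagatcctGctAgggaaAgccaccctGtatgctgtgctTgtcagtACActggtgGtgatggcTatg
Trbc2 exon 3: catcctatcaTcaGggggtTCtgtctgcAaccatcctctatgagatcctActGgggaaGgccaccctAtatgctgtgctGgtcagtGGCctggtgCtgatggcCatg
Posterior standard deviations were at most 8.58% of the count for Trbc1 and 5.88% for Trbc2 in libraries with at least 10 counts. Trbc1 held 37 and 16 counts in SPF, 9 and 41 in GF, and 0 and 1 in AF. Trbc2 held 46 and 23 counts in SPF, 7 and 76 in GF, and 3 and 5 in AF. With 1 count of Trbc1 in AF, the SPF to AF ratio of summed CPM was 43.02 (exact 95% counting interval 7.40 to 1731) and the GF to AF ratio 35.1 (6.01 to 1412). AF did not lie below GF for Trbc2, since GF replicate 1 stood between the AF libraries.

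The constant genes of the other receptor chains, which are not members, were read beside them to see which receptors the libraries held. On the TPM scale, which corrects for length, the gamma chain gene Trgc1 was at 9.90 and 2.06 TPM in SPF, 2.94 and 10.74 TPM in GF, and 0.76 and 1.29 TPM in AF. The alpha chain gene Trac was at 7.16 and 1.26 TPM in SPF, 0.58 and 3.39 TPM in GF, and 1.19 and 1.15 TPM in AF. The delta chain gene Trdc was at 1.85 and 0.56 TPM in SPF, 0.15 and 1.68 TPM in GF, and 0.05 and 0.15 TPM in AF. Gamma and delta chain genes were thus present beside alpha and beta, and the highest TPM of the receptor constant genes in SPF replicate 3 and GF replicate 3 belonged to Trgc1. Trgc2 and Trgc4 had mean TPM of 2.55 and 1.47, and Trgc3 held 0 counts in all 6 libraries. For Trgc1, Trgc2 and Trgc4 the AF libraries lay below all others, whereas for Trac both AF libraries, with 16 and 13 counts, lay above GF replicate 1 with 7. None of the 5 receptor constant genes tested passed a contrast. Within a library, Trdc counts per Trac count were 2.02 and 2.33 in SPF, 1.43 and 2.42 in GF, and 0.188 (95% interval 0.0350 to 0.655) and 0.769 (95% interval 0.302 to 1.90) in AF replicates 2 and 3, so both AF ratios lay below the other 4. Gamma constant gene counts per beta constant gene count went the other way, at 2.88 and 1.33 in SPF, 4.38 and 2.18 in GF, and 5 (95% interval 1.41 to 26.9) and 4.50 (95% interval 1.82 to 13.3) in AF, so both AF ratios lay above the other 4. With so few AF counts, the data gave no single direction for the gamma-delta against the alpha-beta receptor.

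**Figure D3:**
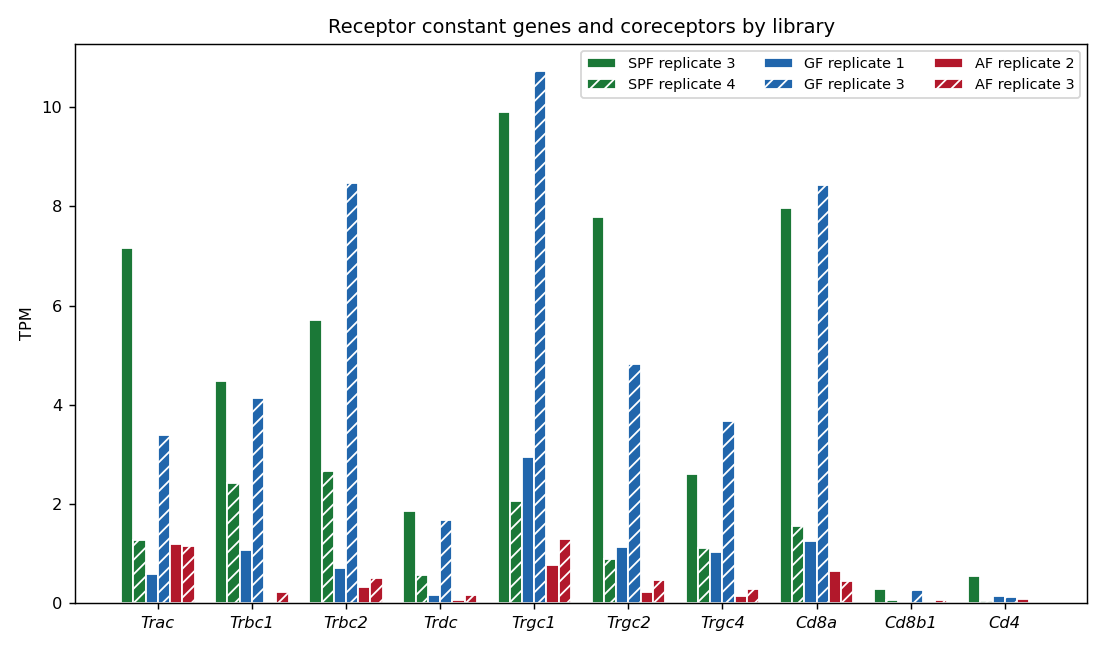
TPM (vertical axis, from 0) of receptor constant genes, the CD8 chains and Cd4 in each library, with colours for groups and hatching for the second replicate of each. Trgc1 reaches 10.7 TPM in GF replicate 3, and Cd8b1 and Cd4 stay below 1 TPM in every library.

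CD8 was measured almost wholly as its alpha chain. Cd8a (ENSMUSG00000053977, chr6:71373427-71379173, plus strand) was at 7.97 and 1.56 TPM in SPF, 1.24 and 8.44 TPM in GF, and 0.65 and 0.45 TPM in AF. Cd8b1, the beta chain of the conventional heterodimer, was at 0.29 and 0.05 TPM in SPF, 0 and 0.26 TPM in GF, and 0 and 0.05 TPM in AF. In CPM, Cd8a was at 14.9 and 4.66 CPM in the SPF libraries, 2.41 and 25.8 in the GF libraries, and 2.36 and 1.31 in the AF libraries, with AF replicate 2 just under GF replicate 1 and a fitted log2 difference of AF from the mean of GF and SPF of -2.69 (SE 1.09, adjusted p = 0.672). Cd4, the coreceptor of helper T cells, held 7 and 2 counts in SPF, 1 and 6 in GF, and 2 and 0 in AF, near the floor throughout.

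Receptor-proximal signalling genes split. Lck, the kinase bound to CD8 that starts receptor signalling, was at 7.05 and 1.85 CPM in the SPF libraries, 1.46 and 10.1 in the GF libraries, and 0.942 and 0.832 in the AF libraries. Zap70, the kinase recruited to phosphorylated CD3 chains, was at 2.70 and 1.71 CPM in the SPF libraries, 0.437 and 4.82 in the GF libraries, and 0.628 and 0.178 in the AF libraries. Both were highest in GF replicate 3, though for Zap70 AF replicate 2 exceeded GF replicate 1. Lat, the membrane scaffold downstream of these kinases, was flatter at 1.79 and 1.92 CPM in the SPF libraries, 0.875 and 2.92 in the GF libraries, and 0.864 and 1.13 in the AF libraries, with a fitted log2 difference of -0.89 (SE 0.63, adjusted p = 0.824). The AF and GF libraries overlapped for Lat.

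Among T cell surface glycoproteins, Cd7, a costimulatory molecule of T and natural killer cells, was the most abundant at 19.9 and 6.58 CPM in the SPF libraries, 4.52 and 37.2 in the GF libraries, and 2.75 and 2.08 in the AF libraries. AF lay below all others, with a fitted log2 difference of -2.78 (SE 0.98, adjusted p = 0.666). Cd96, a receptor for nectin-like ligands, was at 2.24 and 1.92 CPM in the SPF libraries, 0.510 and 4.41 in the GF libraries, and 0.471 and 0.238 in the AF libraries. Cd69, an activation and tissue-residence marker, held 15 and 7 counts in SPF, 3 and 21 in GF, and 2 and 2 in AF, and AF overlapped with GF. Thy1 held 15 and 3 counts in SPF, 0 and 11 in GF, and 0 and 0 in AF. With AF set at the 3 counts that a group total of 0 still allows, Thy1 was 4.87-fold higher in SPF and 2.57-fold higher in GF. The SPF and GF counts were taken as exact, so these folds leave out their counting error. GF replicate 1 itself held 0 counts, so the GF fold rested on GF replicate 3. Cd6, a scavenger receptor family member that tunes receptor signalling, held 30 and 8 counts in SPF, 0 and 7 in GF, and 0 and 0 in AF. It was 10.3-fold higher in SPF than in AF by the same floor and with the same limit. Cd2 and Cd5, which mark conventional T cells, were all but missing, with at most 3 and 6 counts in a library, both in SPF replicate 4.

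Natural killer type receptors were few. Cd160, a receptor for HVEM on activated intraepithelial lymphocytes, was at 2.20 and 1.23 CPM in the SPF libraries, 0.802 and 3.66 in the GF libraries, and 1.41 and 0.416 in the AF libraries, and its AF and GF libraries overlapped. Klrd1, the CD94 chain of a receptor for non-classical MHC, held 28 and 5 counts in SPF, 4 and 8 in GF, and 0 and 2 in AF, so that its highest library was SPF replicate 3. Klre1 had at most 2 counts in any library.

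Both homing genes followed the main order. Itgae (ENSMUSG00000005947, chr11:73090583-73147446, plus strand) was at 14.7 and 5.21 CPM in the SPF libraries, 2.62 and 21.03 in the GF libraries, and 1.18 and 1.13 in the AF libraries, and the AF libraries, at 1.15 ± 0.0347 CPM (SD, n = 2), were close to each other and below all others. Its fitted log2 difference of AF from the mean of GF and SPF was -3.23 (SE 1.01, adjusted p = 0.647). Ccr9, the receptor for the small intestinal chemokine CCL25, was at 2.38 and 1.51 CPM in the SPF libraries, 0.365 and 3.60 in the GF libraries, and 0.157 and 0.357 in the AF libraries, with a posterior standard deviation of up to 15.3% of its count. Il2rb was at 8.43 and 2.54 CPM in the SPF libraries, 2.48 and 22.1 in the GF libraries, and 1.65 and 0.951 in the AF libraries. Runx3, a transcription factor of the CD8 lineage, held 36 and 14 counts in SPF, 7 and 33 in GF, and 2 and 0 in AF, and its SPF to AF ratio of summed CPM was 20.3 (exact 95% counting interval 5.33 to 172). AF lay below all other libraries for each of these 4 genes.

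The pan-leukocyte genes hold the clearest exception. Ptprc, which encodes CD45, was at 12.8 and 6.52 CPM in the SPF libraries, 2.88 and 16.96 in the GF libraries, and 2.67 and 1.96 in the AF libraries. Coro1a, an actin regulator of leukocytes, was at 4.99 and 3.98 CPM in the SPF libraries, 2.41 and 12.3 in the GF libraries, and 0.393 and 0.891 in the AF libraries. Laptm5, a lysosomal protein of blood cells, was at 5.54 and 2.19 CPM in the SPF libraries, 1.28 and 12.3 in the GF libraries, and 0.628 and 0.297 in the AF libraries. For all 3 the AF libraries lay below all others. Rac2 (ENSMUSG00000033220, chr15:78559167-78572783, minus strand), a small GTPase of blood cells, was instead at 9.75 and 3.91 CPM in the SPF libraries, 6.31 and 14.1 in the GF libraries, and 12.3 and 9.51 in the AF libraries. SPF replicate 4 was its lowest library, both AF libraries lay inside the range of the others, and the fitted log2 difference of AF from the mean of GF and SPF was 0.38 (SE 0.48, adjusted p = 0.938). In AF, Rac2 alone gave 157 of the 557 member counts of replicate 2 and 160 of the 523 of replicate 3. Without it the member sums were 294 and 119 CPM in the SPF libraries, 55.01 and 496 in the GF libraries, and 31.4 and 21.6 in the AF libraries.

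Of the 37 members, 29 passed the low-count filter and were tested; Prf1, Xcl1, Cd8b1, Cd2, Cd5, Cd6, Klrd1 and Klre1 did not. A member could pass on its SPF and GF counts alone, so counts and medians over the 29 are descriptions, and the contrasts share libraries. With edgeR's quasi-likelihood test, 0 of 29 members were called at an adjusted p below 0.05 in GF versus SPF (background 0.0147%), in AF versus GF (0.0147%), in AF versus SPF (0.044%), in AF versus the mean of GF and SPF (0.0366%) or in the F test over the 3 groups at once (0.0293%). The smallest adjusted p of a member was 0.389 in AF versus SPF, 0.633 in AF versus the mean of both, and 0.827 in GF versus SPF. At an unadjusted p below 0.05, members lower in AF numbered 20 of 29 against GF (background 2.07%), 10 of 29 against SPF (6.52%) and 20 of 29 against the mean of both (4.3%), with 0 higher in AF. In GF versus SPF 0 of 29 reached it in either direction. The share of all genes that reached it in that contrast was not computed, so nothing is read from that 0. In the F test over the groups 5 members reached it (Gzma, Gzmb, Trbc1, Itgae and Coro1a, background 7.33%). The counts of members lower in AF moved widely when single libraries were left out, in fits whose own filter kept 29 to 32 members. Such a fit left a group with a single library, and the share of all genes at that threshold was not computed for it. Those counts are therefore not given.

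The median log2 difference of the 29 members was -3.19 in AF versus GF, -2.69 in AF versus SPF and 0.35 in GF versus SPF, where the medians of all genes tested were -0.02, 0.01 and 0.02. With Thy1 at the fold that the floor of 3 counts gave, the AF medians were -3.10 and -2.56. In AF versus the mean of GF and SPF the median was -2.85, with 28 of 29 differences below 0 and Rac2 the exception. Much of this rested on 1 library. Without GF replicate 3 the median of AF versus GF was -0.84 and that of GF versus SPF -1.94, while that of AF versus SPF was -2.76. Without SPF replicate 4 the GF versus SPF median was -0.06, and without SPF replicate 3 or without GF replicate 1 it was 1.16 or 1.14. The sign of the GF versus SPF difference thus depended on single libraries, and the negative sign of the median AF differences held in each of these fits. Rac2 was the only member of the 29 above 0 in AF versus the mean of both in these fits and under the other scalings, at 0.09 under library totals alone.

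**Figure D4:**
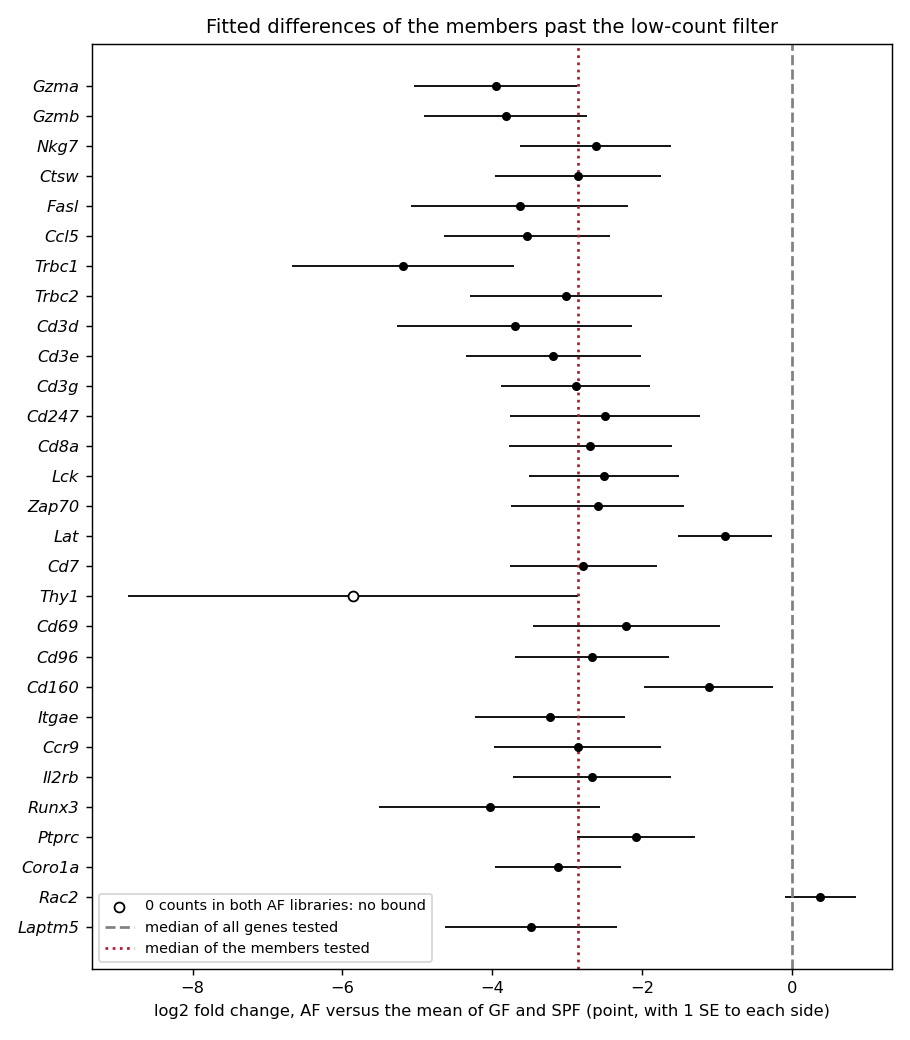
Fitted log2 difference of AF from the mean of GF and SPF (horizontal axis, bars of 1 SE to each side) for the 29 members past the low-count filter, with the medians of the members and of all genes tested as lines. All points but Rac2 lie below 0, and the open circle is Thy1, with 0 counts in AF.

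Other tests of the same tables called more. DESeq2's Wald test called 3 members in AF versus GF (Coro1a, Gzma and Gzmb, with 0.374% of all genes called), 4 in AF versus SPF (Ccl5, Gzma, Gzmb and Itgae, 1.99%), and 7 in AF versus the mean of both (Cd7, Laptm5 and the 5 above, 0.997%). The edgeR likelihood ratio test called 2, 3 and 4 members in these contrasts (background 0.388, 2.18 and 1.13%), each time with Gzma and Gzmb among them. The quasi-likelihood test without the low-count filter called 19, 23 and 22 of 37 members (background 1.16, 3.53 and 2.15%), among them Gzma, Gzmb, Ccl5, Cd8a, Itgae and the CD3 genes Cd3d, Cd3e and Cd3g. Every one of these members was lower in AF. None of these 3 fits called a member in GF versus SPF (background 0.586, 0.711 and 2.13%). On log2(TPM + 1), limma called 0 members in GF versus SPF, AF versus GF, AF versus SPF and AF versus the mean of both (background 0.0413, 0.0743, 0.066 and 0.0743%).

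Ratios within a library do not depend on scaling between libraries, so each member was also set against the summed counts of Cd3d, Cd3e, Cd3g and Cd247, which were 380 and 104 in SPF, 97 and 438 in GF, and 34 and 15 in AF. For the 19 members with at least 10 counts in each SPF and GF library, CD3 chains aside, the ratios ranged over a median of 1.60-fold across those 4 libraries, from 1.20-fold for Itgae to 3.76-fold for Rac2. Gzma per CD3 count was 4.50 and 4.13 in SPF, 3.66 and 4.61 in GF, and 1.76 and 3.93 in AF replicates 2 and 3. The proportion of granzyme A to CD3 RNA was thus much alike in SPF and GF libraries whose summed member levels differed by up to 8.32-fold. By role, cytotoxic genes had 6.32 to 7.66 counts per CD3 count in the SPF and GF libraries, surface glycoproteins 1.43 to 1.49, and pan-leukocyte genes 1.88 to 3.64. The ratio lay lower in both GF than in both SPF libraries for 2 of the 19, Ccl5 and Ccr9 (background 0.419% of 11226 genes), and higher for 4, Ctsw, Cd7, Il2rb and Laptm5 (background 1.81%). Both backgrounds are low by construction, since the CD3 counts of SPF lie between those of GF and a gene that does not vary with CD3 cannot show either order. Nothing is read from the counts of 2 and 4 against them.

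Ccl5 and Il2rb were singled out after their ratios were seen. Of the 19 members, 1 had both SPF ratios above all other libraries and 1 had both below. The share of all genes with either order was not computed, so the values are a description only. Ccl5 per CD3 count was 2.17 (95% interval 1.92 to 2.46) and 2.15 (95% interval 1.70 to 2.74) in SPF replicates 3 and 4, and 1.34 (95% interval 1.02 to 1.76) and 1.51 (95% interval 1.34 to 1.71) in GF replicates 1 and 3. In AF replicates 2 and 3 it was 1.26 (95% interval 0.788 to 2.04) and 1.27 (95% interval 0.610 to 2.68). Both SPF values lay above the other 4. Il2rb per CD3 count was 0.484 (95% interval 0.404 to 0.579) and 0.356 (95% interval 0.238 to 0.522) in SPF, 0.701 (95% interval 0.506 to 0.966) and 0.744 (95% interval 0.643 to 0.861) in GF, and 0.618 (95% interval 0.341 to 1.10) and 1.07 (95% interval 0.494 to 2.32) in AF, with both SPF values below the rest. These intervals cover counting error only. Between 2 groups of 2 libraries an exact permutation test cannot give a p below 0.333. No test was made of these ratios, nor of SPF against the other 4 libraries, the order for which both genes were picked. In AF the ratio exceeded all other libraries for 6 of 19, Nkg7, Cd8a, Lat, Cd160, Ptprc and Rac2, with a background of 73.5%, since the CD3 counts themselves were lowest in AF. It lay below all others for Ccl5 only (background 0.0891%, low for the same reason).

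**Figure D5:**
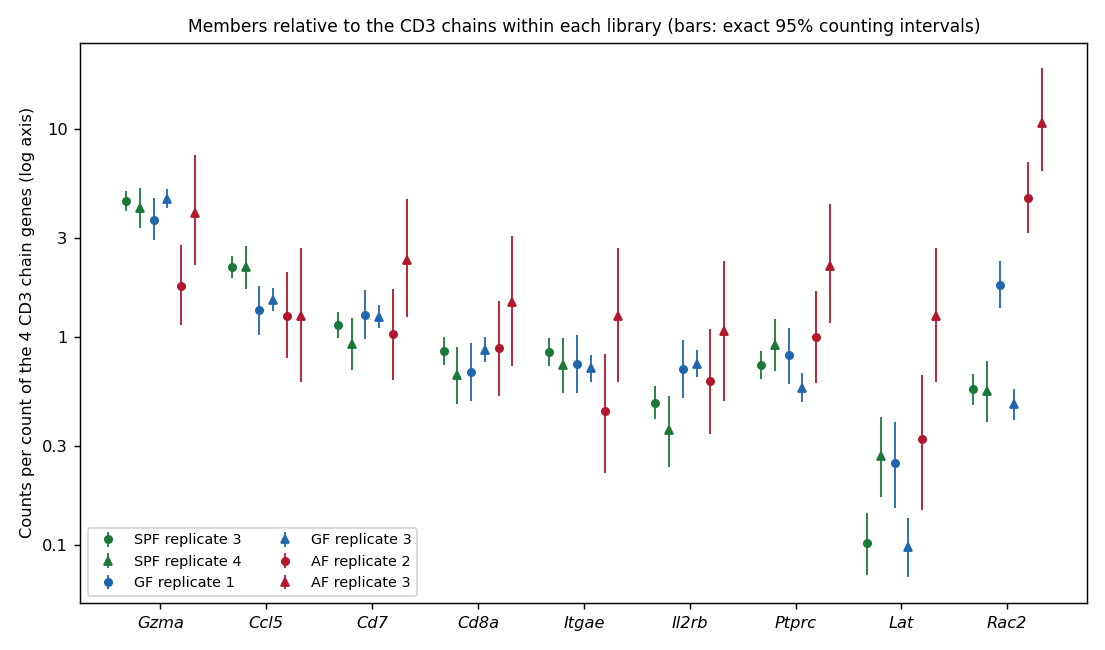
Counts of 9 members per count of the 4 CD3 chain genes within each library (log axis), with exact 95% counting intervals, colours for groups and symbols for replicates. Rac2 stands at 4.62 and 10.7 in the AF libraries and at 0.475 to 1.78 elsewhere, while Gzma lies between 3.66 and 4.61 in the SPF and GF libraries.

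Of 86 further T cell and intraepithelial lymphocyte genes, 56 passed the filter and 0 were called in any contrast. At an unadjusted p below 0.05, 17 were lower and 2 higher of the 56 in AF than in the mean of GF and SPF (background 4.3% lower), and their median log2 difference was -2.05. AF lay below all other libraries for 24 of the 86 and for 22 of the 56 tested, against the 10.1% of all genes given above. Both AF libraries held more of this list in sum than SPF replicate 4 and GF replicate 1: it stood at 209.5 and 133 CPM in the SPF libraries, 149 and 338 in the GF libraries, and 161 and 155 in the AF libraries. The part that markers of other cells had in the results was not tested. Of 17 B and plasma cell genes, 11 had at most 3 counts in every library, and the list, led by Igkc and Igha, summed to 8.24 and 3.22 CPM in the SPF libraries, 1.68 and 6.17 in the GF libraries, and 0.550 and 1.78 in the AF libraries. These sums were highest in SPF replicate 3 and GF replicate 3, as for the members, and the 3 genes tested had a median log2 difference of -2.74 in AF versus the mean of GF and SPF. The 15 stromal and endothelial genes summed to 6.52 to 11.9 CPM, led by Vim and Pecam1. Of 12 mast cell and granulocyte genes 7 were at 0 in all libraries, 10 had at most 3 counts in each, and only 1 passed the filter. The list, led by Siglecf, summed to 3.66 and 0.274 CPM in the SPF libraries, 6.999 and 8.14 in the GF libraries, and 18.1 and 13.01 in the AF libraries. This sum was higher in AF than elsewhere, but with so few genes measured it does not speak for these cell types. Whether Siglecf RNA came from such cells was not tested. Of 10 innate lymphoid genes 4 were at 0 in all libraries and 7 had at most 3 counts in each. Of 18 macrophage and dendritic cell genes 5 had at most 3 counts in every library, and Mertk and Cd68 led the sum of 56.2 to 124 CPM. The 5 red cell genes summed to 7.46 and 0.206 CPM in the SPF libraries, 9.37 and 43.3 in the GF libraries, and 5.11 and 2.26 in the AF libraries, and were thus highest in GF replicate 3, the library highest for most of the members, but near 0 in SPF replicate 4.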

How the data were processed

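Libraries were made with a TruSeq RNA kit from RNeasy-purified RNA, per the labels. Per the submitters' processing notes, the tools were RSEM, STAR 2.5.2b and edgeR 3.16.5, on GRCm38/mm10. Not given in the sources used here: annotation release, strand setting and read filters. The authors deposited, per the file headers, RSEM expected counts per gene (unscaled between libraries), TPM values and posterior standard deviations of the counts. Reads of overlapping or antisense genes could not be told apart.

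Expected counts were rounded (23.5% of values above 0 were not whole). Symbols and 1-based coordinates came from GENCODE M21 on GRCm38, which matched 51633 of 51912 IDs; unmatched IDs took up to 0.0842% of counts. edgeR 4.0.16 (R 4.3.3) with filterByExpr, TMM and quasi-likelihood tests was fitted to all 6 libraries, with Benjamini-Hochberg adjustment over 13644 genes and a threshold of 0.05, and was tested on simulated data. Residual degrees of freedom were 3 and the common biological coefficient of variation was 0.368. Alternatives used DESeq2 1.42.0, limma 3.58.1, other scalings, no filter and libraries left out in turn. CPM served to compare a gene between libraries, TPM to compare genes. Ratios of counts carry exact 95% binomial-based intervals, which cover counting error only; a measured 0 allows up to 3 counts, a floor of 0.109 to 0.236 CPM in a library. Python 3.11.15 with pandas 2.3.3, numpy 2.4.6, scipy 1.17.1 and matplotlib 3.10.9 made summaries and plots.

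Groups followed the labels. The members and gene lists were chosen with earlier results of these data known, so nothing is adjusted over a list alone. Named genes were the members, the receptor constant genes, Cd4, the 2 most abundant genes by mean TPM of each list for another cell type, and 3 epithelial genes; genes outside this rule are said to be chosen after their values were seen, and an item of the innate lymphoid list is not reported here. Xist and the Y-linked genes were read only to compare libraries.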

Additional observations from a re-analysis of the deposited data

How the results depend on the processing

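No paired analysis was possible because the groups share fewer than 2 replicate numbers that the labels give, SPF having 3 and 4, GF 1 and 3, and AF 2 and 3. Members called at an adjusted p below 0.05 numbered 0 of 29 by edgeR's quasi-likelihood test in every contrast. With DESeq2 they numbered 3 in AF versus GF, 4 in AF versus SPF, 7 in AF versus the mean of GF and SPF and 2 for any difference. With edgeR's likelihood ratio test they numbered 2, 3, 4 and 2. Without the low-count filter they numbered 19, 23, 22 and 23 of 37, and the cause was not tested. Over all genes DESeq2 called 80 in GF versus SPF, 51, 272 and 136 in the AF contrasts and 207 for any difference, and edgeR 2, 2, 6, 5 and 4. Median-of-ratios scaling, library totals alone, limma on log2(TPM + 1) and leaving out each library called 0 members. Members with AF below all other libraries numbered 22 under median-of-ratios scaling (10.3% of all genes) and 26 under library totals alone (14%). They numbered 22 to 31 with a library left out. All these settings were chosen after seeing the data. The order is easier to meet with fewer libraries, and the share of all genes was not computed there, so nothing is read from that range. With a library left out, the member median log2 difference ranged from -1.94 to 1.16 in GF versus SPF, -4.00 to -0.84 in AF versus GF, -3.17 to -2.13 in AF versus SPF and -3.31 to -1.68 in AF versus the mean of both. Members lower in AF at an unadjusted p below 0.05 numbered 2 to 27 against GF, 2 to 24 against SPF and 2 to 27 against the mean of both, in fits that held 29 to 32 members, again chosen after seeing the data. With limma the member median was -1.37 in AF versus GF, -1.54 in AF versus SPF and -1.43 in AF versus the mean of both, on a scale that shrinks low genes. That fit held 25 members, and its medians of all genes were -0.36, -0.31 and -0.32 in the same contrasts. Library totals alone shifted the median of all genes by 0.16 in GF versus SPF and by -0.38, -0.20 and -0.28 in the AF contrasts, and gave AF replicate 2 a member sum of 34.6 CPM. Without Gzma, Gzmb and Ccl5 the sums were 146 and 63.0 CPM for SPF, 36.2 and 254 for GF and 33.5 and 23.8 for AF, so that GF replicate 1 and AF replicate 2 lay closer together than with them. Members other than Rac2 had 0 to 60 counts in an AF library, which limits their fold changes.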

Other observations

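Epithelial genes whose products act on intraepithelial lymphocytes were read as a list of 10, of which all were tested and 0 were called by edgeR's quasi-likelihood test in any contrast. At an unadjusted p below 0.05, 4 were lower in AF than in the mean of GF and SPF (background 4.3%), and 0 were higher. Against SPF alone 5 were lower in AF (background 6.52%) and 0 higher. Against GF alone 0 were lower in AF (background 2.07%) and 1 was higher. The median log2 difference of the 10 genes was -0.39 in AF versus the mean of both, -0.52 in AF versus SPF and -0.32 in AF versus GF. AF lay below all other libraries for 5 of the 10, Btnl1, Btnl4, Btnl6, Ccl25 and Tnfrsf14 (background 10.1%). Under library totals alone Il15ra took the place of Ccl25, still 5 of the 10 (background 14%). These 6 genes are named after their values were seen. Btnl1 and Btnl6 encode butyrophilin-like proteins of the enterocyte that maintain gamma-delta lymphocytes of the gut. Btnl1 was at 188 and 329.6 CPM in the SPF libraries, 173 and 181 in the GF libraries, and 139 and 119.9 in the AF libraries. Btnl6 was at 144 and 222 CPM in the SPF libraries, 123 and 131 in the GF libraries, and 89.1 and 71.3 in the AF libraries. For both, SPF replicate 4 was the highest library, as it was for 29.9% of all genes tested. The lymphocyte genes were highest in GF replicate 3 for 32 of 37 (background 13.7%).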
